A study of Chenopodium quinoa with 15 samples.

Results

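The ethylene synthesis genes of quinoa (Chenopodium quinoa, variety NL-6) were taken as the genes whose match in the NR protein database carries the words 1-aminocyclopropane-1-carboxylate (ACC) synthase or ACC oxidase. This rule, which uses no expression value, found 29 of the 58522 annotated genes. Of these, 6 were titled synthase, 6 were titled oxidase and 17 were titled oxidase homolog. RNA-seq had been performed on 5 groups of 3 replicates, all of the NL-6 variety. Stamens (more than 80 per replicate) and pistils (more than 30 per replicate) were from newly opened flowers of plants kept on soil for 7 weeks. Roots (8 per replicate) were from dark-grown seedlings on MS medium, 3 days old in the study's methods and 2 days old in the sample labels. NaCl-treated leaves pooled the vegetative leaves of 4 seedlings of 14 days that received 400 mM NaCl for 8 h, and untreated leaves, named leaf, pooled 4 seedlings of the same age without NaCl. Light lasted 16 h per day in the study's methods and 14 h in the labels. Root therefore differed from the other tissues in age, medium and light as well as in organ, and these cannot be told apart. Stamens and pistils came from older plants than the leaves, so organ and plant age cannot be told apart there either.

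Ethylene is a gaseous plant hormone. ACC synthase turns S-adenosylmethionine into ACC and is often the limiting step of the pathway, and ACC oxidase, an iron-dependent dioxygenase, turns ACC into ethylene. The hormone is known for its parts in flower senescence, fruit ripening, root elongation and responses to flooding and salt. The title oxidase homolog is given to proteins of the same large dioxygenase family that resemble ACC oxidase in sequence, and the title does not show that such a protein makes ethylene.

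The 15 libraries held 12499775 to 17019602 counted reads each. Levels are given as CPM, the counts brought to a common library size by TMM over all 15 libraries, which compares groups within a gene, and as the deposited FPKM, which is also divided by gene length and compares genes. TMM takes most genes as unchanged from library to library. With the total library size in its place, the median log2 fold change of all tested genes shifted to -2.02 from -0.19 for stamen over pistil, to -1.71 from -0.19 for stamen over root, to -0.85 from -0.06 for stamen over leaf, to 1.2 from 0.14 for pistil over leaf, to 0.76 from 0.02 for root over leaf, and to 0.29 from 0.04 for NaCl-treated over untreated leaf. Tests used edgeR's quasi-likelihood test on the counts with Benjamini-Hochberg adjustment over all tested genes, at a threshold of 0.05. Marker genes followed the labels. The summed CPM of 4 genes titled Casparian strip protein was 43.7 to 59.1 in root and at most 4.07 in every other library, and that of 16 chlorophyll a-b binding genes was 13855 to 16929 in NaCl-treated leaf, 19556 to 22927 in leaf and at most 397 elsewhere. Genes titled pollen protein (21 genes) summed to 29475 to 31193 CPM in stamen 931 to 1263 CPM in pistil and 887 to 1199 CPM in root. Genes titled YABBY, CRABS CLAW or SPATULA (11 genes), regulators of carpel development, summed to 237 to 261 CPM in pistil and at most 33.3 CPM elsewhere. In pooled tissue, fewer cells of a type and less RNA per cell cannot be told apart.

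The 6 synthases were spread over 6 chromosomes and shared 3 NR matches, a pair of genes to each match. All 6 carried the KEGG code of ACC synthase (K01762). They were titled synthase 7 (CqNL-6_019402 on chromosome 14 and CqNL-6_035405 on chromosome 8), synthase 3 (CqNL-6_008550 and CqNL-6_011717) and synthase-like (CqNL-6_001259 and CqNL-6_025020). Among the 6 oxidases, only CqNL-6_002482 (chromosome 16, 44342775 to 44344233), CqNL-6_017086 (chromosome 5, 11601450 to 11602871) and CqNL-6_025273 (an unplaced contig) carried the KEGG code of ACC oxidase (K05933). The first pair of these was titled oxidase 5 and shared 1 NR match, and the last was titled oxidase-like. CqNL-6_055529 (chromosome 6, 8051911 to 8066294, minus strand) was titled oxidase from a match in pineapple (Ananas comosus), had no KEGG code, and was 5159 bases long, against 1077 to 1728 bases for the other oxidases. The 17 homologs carried no KEGG code, and 11 of them shared 1 NR match. Neighbouring members lay within 16.1 kb on chromosome 15 (3 genes), 62.2 kb on chromosome 4 (3 genes), 86.4 kb on chromosome 12 (3 genes) and 10.8 kb on chromosome 10 (2 genes), and the homolog CqNL-6_055531 lay beside CqNL-6_055529. Coordinates are those of the deposited NL-6 table. The strand setting and the handling of reads shared by near-identical copies are unknown here, and values of such copies are uncertain.

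Most members were read weakly or not at all. In the 15 libraries 5 homologs had 0 reads, 3 further homologs had 1 to 10 reads in all, and 13 of the 29 members stayed under 1 CPM in every group. At least 1 read in all 3 replicates was found for 7 members in stamen, 12 in pistil, 19 in root, 8 in NaCl-treated leaf and 7 in leaf. Only 6 members reached 10 CPM in a group, namely 4 oxidases and 2 homologs. The filter on low counts passed 15 members for the tissue tests and 6 for the NaCl test.

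**Figure D1:**
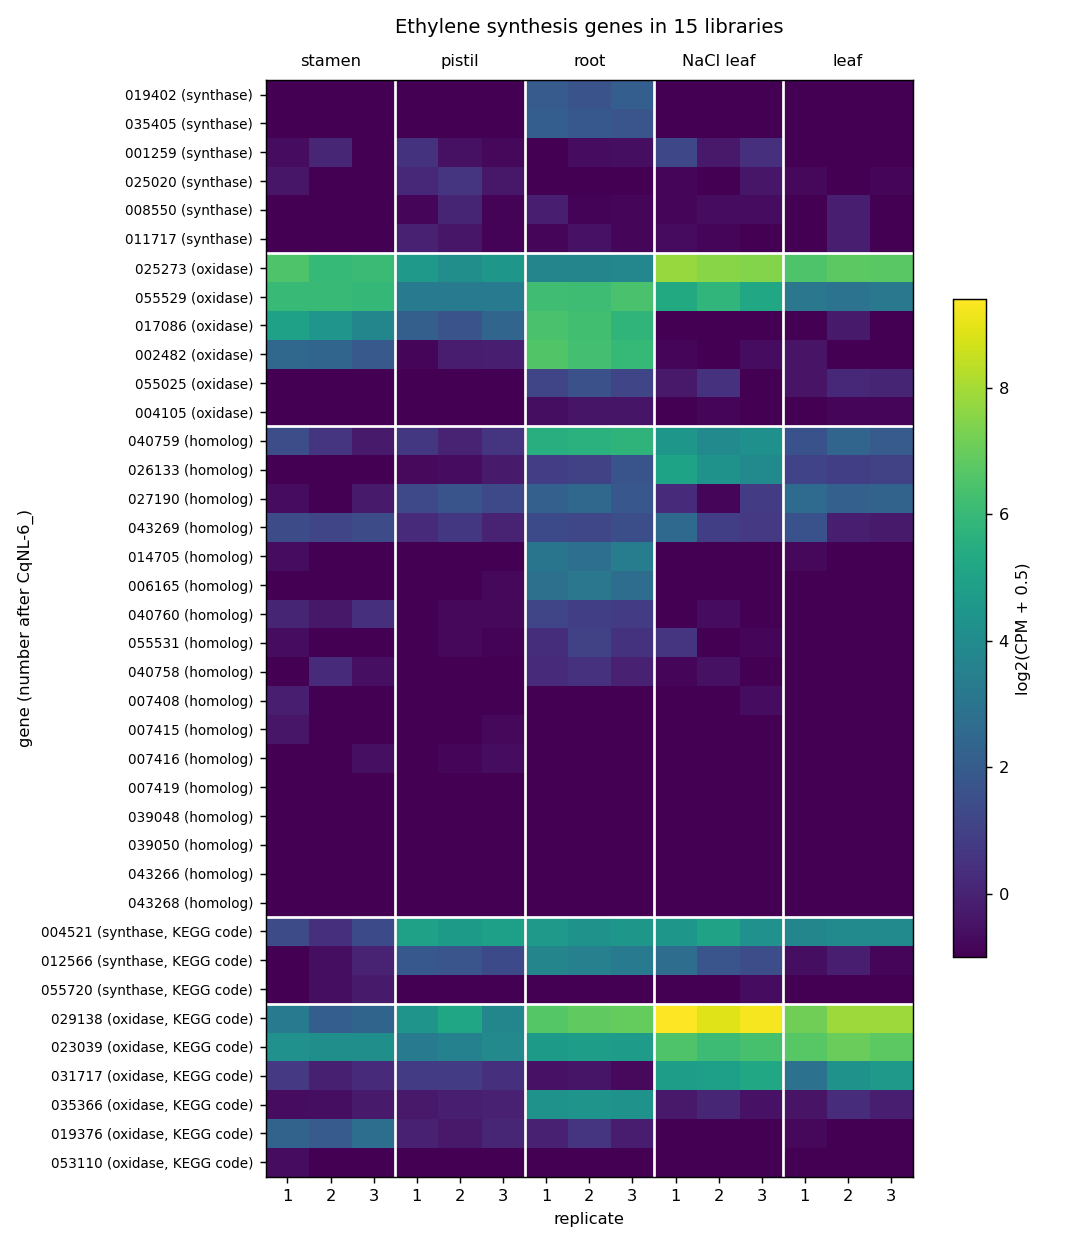
Heat map of log2(CPM + 0.5) in the 15 libraries (columns, by group and replicate) for the 29 members in 3 classes and for 9 further genes that carry a KEGG code of the pathway without the title (rows). Reads of the synthases CqNL-6_019402 and CqNL-6_035405 are seen in the root columns alone, and 5 homologs are at 0 reads throughout.

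The synthases were expressed at low levels, and only the synthase 7 pair passed the filter. Both were read in root and had 0 reads in the 12 other libraries. CqNL-6_019402 had 3.44, 2.67 and 3.81 CPM in root (202 reads in all), which is at least 21.9-fold higher than in stamen, 73.9-fold than in pistil, 50.8-fold than in NaCl-treated leaf and 46.2-fold than in leaf, with 3 reads over the 3 libraries as the limit for 0 reads. CqNL-6_035405 had 3.85, 3.15 and 2.87 CPM in root (203 reads), at least 21.8-fold higher than in stamen. The pair had nearly the same FPKM in root, 3.33 ± 0.54 for CqNL-6_019402 and 3.34 ± 0.55 for CqNL-6_035405 (SD, n = 3). Both entered the tissue tests through their root reads alone, so no test is given for them. Such limits and folds cover counting error only.

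The other 4 synthases stayed near or under 1 CPM and were not tested. The synthase-like gene CqNL-6_001259 had 30, 5 and 12 reads in the NaCl-treated leaf libraries and 0 reads in the 3 leaf libraries. This is at least 14.2-fold higher in NaCl-treated leaf by the same limit, without a test because the gene did not pass the filter. Its partner CqNL-6_025020 was read mainly in pistil, with 14, 21 and 7 reads, against 0 reads in root and 2 reads in all in leaf. The synthase 3 pair had at most 12 reads in any library. Summed over the 6 synthases, FPKM was 0.097 ± 0.088 in stamen, 1.56 ± 0.94 in pistil, 6.99 ± 0.78 in root, 0.81 ± 0.51 in NaCl-treated leaf and 0.18 ± 0.24 in leaf (SD, n = 3). FPKM rests on total counts, so the size of the differences between these sums depends on the scaling.

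The oxidase 5 pair was expressed mainly in root, with stamen next at a lower level. CqNL-6_002482 had 5.24, 4.8 and 3.20 CPM in stamen, 0.046, 0.365 and 0.426 CPM in pistil, 95.4, 78.0 and 62.0 CPM in root, 0.063, 0 and 0.138 CPM in NaCl-treated leaf and 0.230, 0 and 0 CPM in leaf. The root libraries did not overlap any other group, and the stamen libraries lay between root and the rest. Its log2 fold change was -4.10 ± 0.25 (SE) for stamen over root (edgeR adjusted p = 3.18e-11) and 3.98 ± 0.45 for stamen over pistil (edgeR adjusted p = 1.78e-07). CqNL-6_017086 had 30.2, 20.6 and 13.2 CPM in stamen, 3.94, 2.69 and 4.69 CPM in pistil, 85.5, 75.6 and 55.3 CPM in root, 0 in all 3 NaCl-treated leaf libraries and 0, 0.345 and 0 CPM in leaf. Its order was the same, with root above stamen, stamen above pistil and leaf at or near 0. The log2 fold change was -1.72 ± 0.25 for stamen over root (edgeR adjusted p = 4.65e-06) and 2.55 ± 0.29 for stamen over pistil (edgeR adjusted p = 2.04e-07). With the total library size the stamen over pistil value was 0.69 (adjusted p = 0.034) for CqNL-6_017086 and 2.14 for CqNL-6_002482, and the deposited FPKM of CqNL-6_017086, 9.61 ± 3.86 in stamen and 5.96 ± 1.54 in pistil, overlapped between the libraries. The stamen over root values were then -3.25 and -5.64. Pollen-titled genes were also read in pistil and root at the levels given above, and their part in these values was not tested.

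The balance of this pair differed between organs. In root both copies had nearly the same FPKM, with a ratio of CqNL-6_017086 to CqNL-6_002482 of 0.942 to 1.02 over the 3 libraries. In stamen the ratio was 4.33 to 6.08, so the ranges of stamen and root did not overlap. In pistil it was 7.79 to 89.7, on 1 to 10 reads of CqNL-6_002482 per library. The mean log2 ratio was 2.30 in stamen and -0.04 in root, and a two-sided exact permutation test gave p = 0.1, the smallest value that 3 against 3 libraries allow.

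CqNL-6_025273, titled oxidase-like, had root and leaf in the opposite order and was the main titled oxidase of leaves. It had 91.1, 62.2 and 66.6 CPM in stamen, 23.4, 17.2 and 22.2 CPM in pistil, 12.7, 12.6 and 13.4 CPM in root, 219, 185 and 176 CPM in NaCl-treated leaf and 93.2, 109.6 and 106.7 CPM in leaf. Every NaCl-treated library was above every other library, and leaf was above stamen, stamen above pistil and pistil above root without overlap between these groups. The log2 fold change was -0.50 ± 0.14 for stamen over leaf (edgeR adjusted p = 0.00386), 1.85 ± 0.15 for stamen over pistil (edgeR adjusted p = 1.81e-09) and 0.68 ± 0.15 for pistil over root (edgeR adjusted p = 0.000565). The stamen over pistil difference rests on the scaling. It was -0.0062 with the total library size (adjusted p = 0.985), and the deposited FPKM was 20.5 ± 4.24 in stamen and 20.6 ± 3.08 in pistil.

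CqNL-6_055529 was expressed in all 5 groups. It had 63.2, 65.4 and 59.4 CPM in stamen, 9.64, 8.85 and 9.46 CPM in pistil, 73.0, 70.4 and 84.3 CPM in root, 38.7, 57.1 and 36.6 CPM in NaCl-treated leaf and 8.28, 7.30 and 8.55 CPM in leaf. Root and stamen were high and pistil and leaf low, with no overlap between the 2 levels. Its log2 fold change was 3.20 ± 0.12 for root over leaf (edgeR adjusted p = 3.55e-14) and 2.79 ± 0.12 for stamen over pistil (edgeR adjusted p = 1.72e-13). With the total library size the stamen over pistil value was 0.94. Between the 2 high tissues the difference was -0.25 ± 0.11 for stamen over root with TMM (edgeR adjusted p = 0.0392) and -1.78 with the total library size (adjusted p = 1.29e-11). With TMM and without root replicate 3 it was -0.17 with an adjusted p of 0.169, and the adjusted p ranged from 0.00414 to 0.169 when each library was left out in turn. Pistil and leaf differed by 0.16 ± 0.13, which did not pass (edgeR adjusted p = 0.264), although with the total library size it was 1.22 (adjusted p = 3.7e-08). Its FPKM, which rests on the total count of each library, was 5.89 ± 0.42 in stamen and 20.3 ± 1.59 in root.

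The remaining 2 oxidases shared 1 NR match and were read little. CqNL-6_055025 had 1.75, 2.5 and 1.72 CPM in root, 0.315, 0.887 and 0 CPM in NaCl-treated leaf, 0.230, 0.620 and 0.556 CPM in leaf, and 0 reads in stamen and pistil. The root libraries were above all others. The gene entered the tissue tests through root, so no test is given, and by the limit for 0 reads it was at least 13.2-fold higher in root than in stamen. CqNL-6_004105 had 14 reads in root, 2 in leaf, 1 in NaCl-treated leaf and 0 in stamen and pistil.

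Of the 17 homologs, CqNL-6_040759 and CqNL-6_026133 were expressed most. CqNL-6_040759 lies in the middle of the cluster on chromosome 15 (3934584 to 3936641). It had 2.27, 1.02 and 0.337 CPM in stamen, 1.11, 0.502 and 1.02 CPM in pistil, 45.4, 49.7 and 53.3 CPM in root, 22.1, 14.8 and 18.3 CPM in NaCl-treated leaf and 2.53, 4.75 and 3.41 CPM in leaf. Root was above every other group without overlap, by a log2 fold change of 3.75 ± 0.23 over leaf (edgeR adjusted p = 5.23e-11), and NaCl-treated leaf was next. Stamen and pistil overlapped and did not differ beyond their spread, at 0.55 ± 0.49 (edgeR adjusted p = 0.312). Its neighbours CqNL-6_040758 and CqNL-6_040760 were also read most in root but at much lower levels, so that CqNL-6_040759 had 34.4 to 71.1 times the FPKM of CqNL-6_040758 and 14.6 to 23.0 times that of CqNL-6_040760 in root.

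CqNL-6_026133 (chromosome 6, 19756636 to 19763321) was titled oxidase homolog 1 from a match in grapevine (Vitis vinifera). It had 0 reads in the 3 stamen libraries, 0.093, 0.137 and 0.341 CPM in pistil, 1.34, 1.55 and 2.71 CPM in root, 32.2, 18.9 and 15.1 CPM in NaCl-treated leaf and 1.61, 1.38 and 1.53 CPM in leaf. The NaCl-treated libraries were far above all others. Among the untreated tissues, root and leaf overlapped and did not differ beyond their spread, at 0.27 ± 0.39 for root over leaf (edgeR adjusted p = 0.557), and without root replicate 3 the value was -0.092. Pistil was lower than leaf by a log2 fold change of -2.96 ± 0.51 (edgeR adjusted p = 7.5e-05), and stamen was at least 9.97-fold lower than leaf.

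Other homologs were read in 1 or a few tissues. CqNL-6_006165 and CqNL-6_014705, which shared 1 NR match on chromosomes 2 and 9, had 6.97 ± 1.12 and 8.02 ± 1.78 CPM in root and at most 2 reads in any other library. CqNL-6_027190 had 0.142, 0 and 0.337 CPM in stamen, 1.95, 2.74 and 1.96 CPM in pistil, 4.11, 5.04 and 3.03 CPM in root, with 5.67, 3.997 and 4.52 CPM in leaf, so root and leaf overlapped (-0.25 ± 0.26 for root over leaf, edgeR adjusted p = 0.411). It was lower in pistil than in leaf by -1.14 ± 0.27 (edgeR adjusted p = 0.00101), which was lost with the total library size (-0.08, adjusted p = 0.793). CqNL-6_043269 was read in every library at 0.347 to 5.30 CPM, while its neighbours CqNL-6_043266 and CqNL-6_043268 had 0 reads. CqNL-6_055531, beside CqNL-6_055529, had 1.10 ± 0.44 CPM in root and at most 0.36 CPM on average in any other group.

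**Figure D2:**
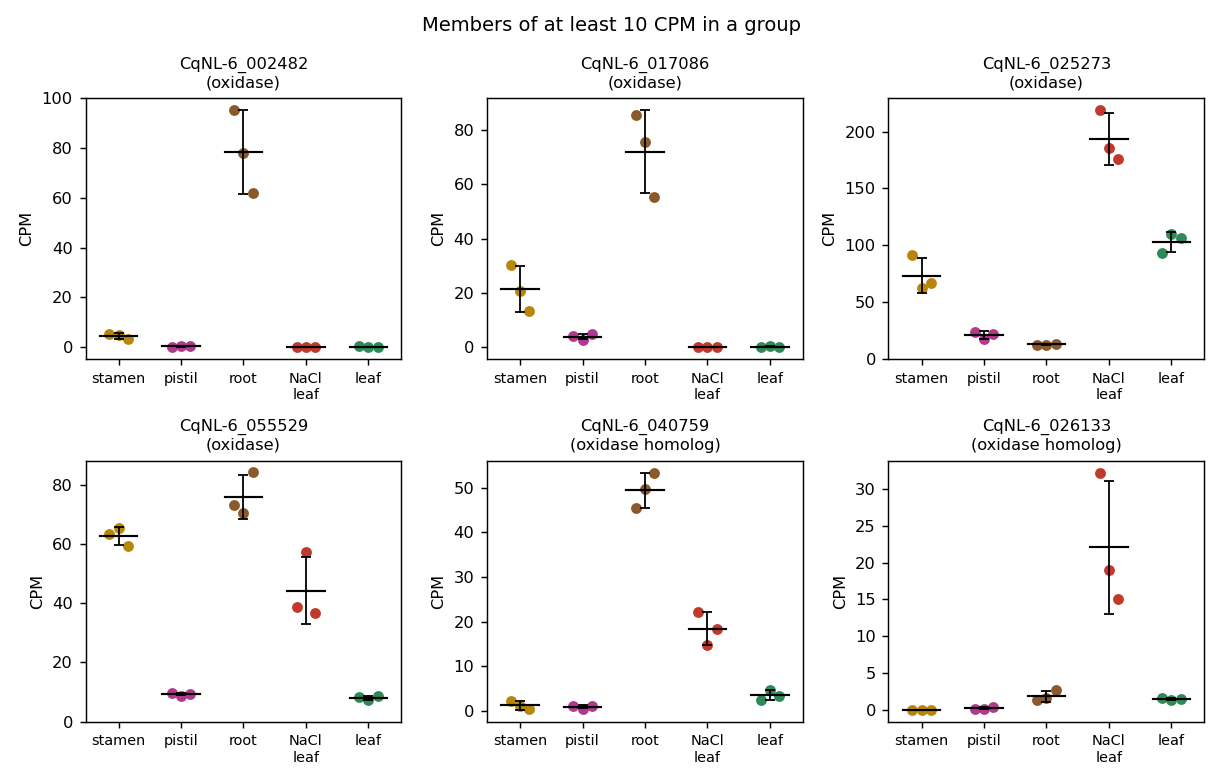
CPM of the 6 members that reached 10 CPM in a group, by group, with each point a library, the long bar the mean and the error bar the SD (n = 3). CqNL-6_002482, CqNL-6_017086 and CqNL-6_040759 are highest in root, CqNL-6_025273 and CqNL-6_026133 are highest in NaCl-treated leaf, and CqNL-6_055529 is high in stamen and root (62.7 and 75.9 CPM on average) and low in pistil and leaf.

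Among the untreated tissues, a gene counted as highest in 1 of them if it passed against all the others at a minimum log2 fold change of 1. By this rule 10 of the 15 tested members were highest in root, beside 10.4% of the 35954 genes tested. They were both synthase 7 genes, the oxidases CqNL-6_002482, CqNL-6_017086 and CqNL-6_055025, and the homologs CqNL-6_006165, CqNL-6_014705, CqNL-6_040759, CqNL-6_040760 and CqNL-6_055531. Several of them passed the filter through their root reads alone, so the count is a description and not a test of the family. In edgeR 0 members were highest in stamen, pistil or leaf, also at an unadjusted p under 0.05 and in DESeq2, against 20.0%, 6.03% and 11.1% of all tested genes in that order. With no minimum fold, or with the total library size, CqNL-6_025273 was highest in leaf and CqNL-6_055529 was added in root, which then had 11 members. Without the filter on low counts CqNL-6_025020 was highest in pistil.

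Between pairs of tissues the members passed as follows. For stamen over root 14 members passed, 1 higher and 13 lower (81.5% of all tested genes passed, 38.3% higher and 43.2% lower). For pistil over root 15 passed, 1 higher and 14 lower (74.7% of all genes, 40.9% higher and 33.8% lower). The 1 higher member was CqNL-6_025273 in both. For root over leaf 12 passed, 11 higher and 1 lower (68.6% of all genes, 36.0% higher and 32.6% lower). For stamen over leaf 9 passed, 4 higher and 5 lower (79.9%, with 38.4% higher and 41.6% lower). For stamen over pistil 8 passed, 6 higher and 2 lower (79.5%, with 37.0% higher and 42.5% lower), and with the total library size 3 were higher and 3 lower. For pistil over leaf 6 passed, 1 higher and 5 lower (69.5%, with 37.8% higher and 31.7% lower), and with the total library size 4 were higher and 4 lower. Members with 0 or few reads outside root entered these tests through root alone, so nothing is read from the counts for the family.

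NaCl treatment was compared with no treatment in leaves. Of the 6 members tested, 4 were higher and 1 lower in NaCl-treated leaves, while 46.8% of all 29201 tested genes passed, 24.0% higher and 22.8% lower. The lower member, CqNL-6_027190, entered the test through its leaf reads. The largest change was in the homolog CqNL-6_026133, at 22.1 ± 9.01 CPM in NaCl-treated leaf and 1.51 ± 0.12 CPM in leaf, a log2 fold change of 3.91 ± 0.32 (edgeR adjusted p = 5.57e-05). Its lowest NaCl-treated library (15.1 CPM) was above its highest leaf library (1.61 CPM). The oxidase CqNL-6_055529 averaged 44.1 ± 11.3 CPM in NaCl-treated leaf and 8.04 ± 0.655 CPM in leaf, and rose by 2.49 ± 0.20 (edgeR adjusted p = 4.95e-05). The homolog CqNL-6_040759 averaged 18.4 ± 3.67 CPM in NaCl-treated leaf and 3.56 ± 1.12 CPM in leaf, and rose by 2.40 ± 0.25 (edgeR adjusted p = 0.000123). CqNL-6_025273 rose least, by 0.94 ± 0.13 (edgeR adjusted p = 0.000478), from the highest level of the titled members, with 194 ± 22.8 CPM in NaCl-treated leaf and 103 ± 8.71 CPM in leaf. In these 4 members every NaCl-treated library was above every leaf library, as in 28.3% of all tested genes (58.5% did not overlap, with 30.2% lower).

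The homolog CqNL-6_027190 was lower after NaCl treatment. It had 0.694, 0.063 and 1.24 CPM in NaCl-treated leaf, against 5.67, 3.997 and 4.52 CPM in leaf, a log2 fold change of -2.79. The gene entered the NaCl test through its leaf reads, so no test is given. The homolog CqNL-6_043269 did not pass (1.32 ± 0.79, edgeR adjusted p = 0.197) and was uneven among replicates, with 5.30, 1.39 and 1.18 CPM in NaCl-treated leaf and 2.53, 0.413 and 0.347 CPM in leaf. Without leaf replicate 1 its log2 fold change was 2.79 (adjusted p = 0.0312) and without NaCl-treated replicate 1 it was 0.29 (adjusted p = 0.785), which are also the ends of its range over the left-out libraries. Genes titled dehydrin or late embryogenesis abundant protein (3 genes) summed to 150 to 365 CPM in NaCl-treated leaf and 40.6 to 55.5 CPM in leaf, without overlap between the groups. They also summed to 298 to 417 CPM in untreated root, 99.6 to 131 in stamen and 47.7 to 65.8 in pistil. In NaCl-treated leaf 1 of them had 0 reads. Counts varied more among the NaCl-treated replicates than in other groups, with a chi-square per gene of 13.4 to 20.6 between pairs, against 3.85 to 10.0 elsewhere.

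**Figure D3:**
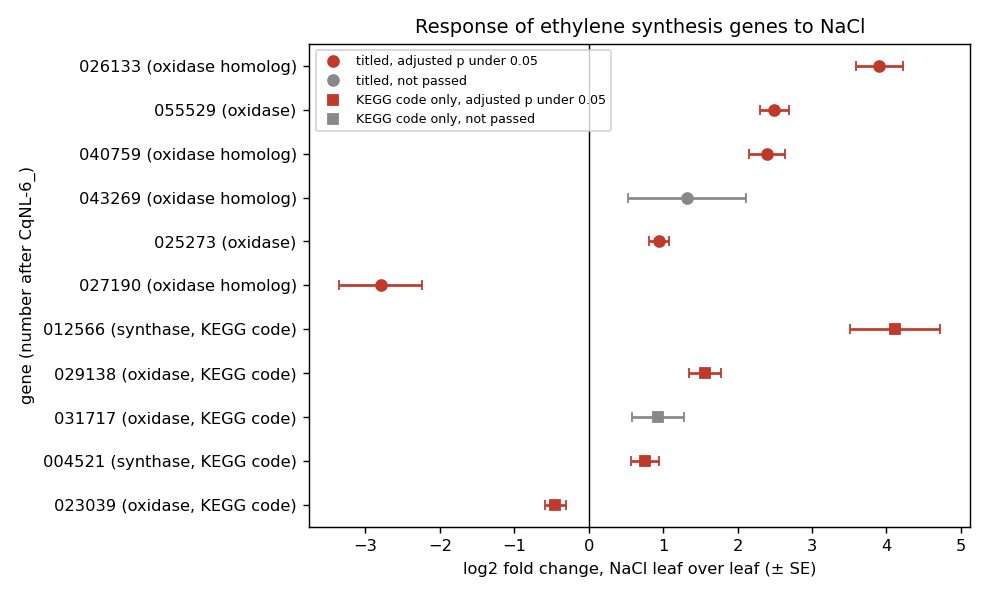
Log2 fold change of NaCl-treated over untreated leaf (points, with SE bars) for the 6 tested members (circles) and for 5 further tested genes with a KEGG code of the pathway (squares). CqNL-6_026133 (3.91), CqNL-6_055529 (2.49), CqNL-6_040759 (2.40) and CqNL-6_025273 (0.94) lie right of 0. CqNL-6_027190 (-2.79), which entered the test through its leaf reads, lies left of it, and grey points did not pass.

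The title does not take in every gene annotated to these enzymes. A further 9 genes carried the KEGG code of ACC synthase (3 genes) or ACC oxidase (6 genes) while their NR match was a hypothetical protein of spinach (Spinacia oleracea), and they were examined after the data had been seen. CqNL-6_029138 (chromosome 11, 67498766 to 67500473) had the highest mean FPKM of the genes of either enzyme in pistil, root, NaCl-treated leaf and leaf, but not in stamen. It had 8.93, 3.78 and 4.55 CPM in stamen, 20.2, 34.3 and 13.2 CPM in pistil, 113 ± 11.1 CPM in root, 672, 468 and 615 CPM in NaCl-treated leaf and 142, 234 and 234 CPM in leaf. After NaCl treatment it rose by a log2 fold change of 1.56 ± 0.21 (edgeR adjusted p = 0.000451), with no overlap between the groups. CqNL-6_023039, at 81.5 ± 11.3 CPM in NaCl-treated leaf and 114 ± 14.7 CPM in leaf, fell by 0.45 on the log2 scale (edgeR adjusted p = 0.0289). Its deposited FPKM overlapped, at 64.6 to 85.4 in NaCl-treated leaf and 75.8 to 98.8 in leaf, so the fall depends on the scaling. CqNL-6_031717, which shares the NR match of CqNL-6_029138, had 30.7 ± 4.31 CPM in NaCl-treated leaf and 16.4 ± 8.53 CPM in leaf and did not pass (0.93 ± 0.35, edgeR adjusted p = 0.0508).

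Of the 3 synthases found by KEGG code alone, CqNL-6_055720 had 5 reads in the 15 libraries. CqNL-6_004521 had 1.67 ± 0.70 CPM in stamen, 28.0 ± 2.81 CPM in pistil, 21.9 ± 2.01 CPM in root, 23.9 ± 6.46 CPM in NaCl-treated leaf and 14.5 ± 1.21 CPM in leaf, and rose by 0.76 ± 0.19 after NaCl treatment (edgeR adjusted p = 0.0107). CqNL-6_012566, of the same NR match, had 6.12, 2.85 and 2.28 CPM in NaCl-treated leaf, against 0.153, 0.413 and 0.070 CPM in leaf, where it had 2, 6 and 1 reads. It entered the NaCl test through the NaCl-treated libraries, so no test is given. In root it had 10.8 ± 1.80 CPM. The oxidase gene CqNL-6_035366 was read almost only in root (19.5 ± 0.60 CPM, against at most 0.47 CPM on average in the other groups), and CqNL-6_019376 was highest in stamen (4.71 ± 1.40 CPM). With these genes added, 9 of 11 tested genes passed in NaCl-treated over untreated leaf, 7 higher and 2 lower, beside 46.8% of all genes (24.0% higher and 22.8% lower). The higher ones include CqNL-6_012566 and the lower ones CqNL-6_027190, each of which entered the test through 1 group. The count is therefore a description only.

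Per length, the gene with the largest mean share of oxidase transcripts was CqNL-6_025273 in stamen and CqNL-6_029138 in the 4 other groups. FPKM rests on the total count of each library, which TMM multiplied by 0.474 to 0.497 in stamen and 1.69 to 1.73 in pistil. Differences between groups in the sums here, above all stamen against pistil, therefore depend on the scaling. Over the 9 genes with the ACC oxidase code, summed FPKM was 44.8 ± 9.53 in stamen, 83.9 ± 12.2 in pistil, 399 ± 33.8 in root, 787 ± 119 in NaCl-treated leaf and 312 ± 64.3 in leaf (SD, n = 3). In stamen CqNL-6_025273 held 46.0% ± 2.30 of this sum and CqNL-6_017086 21.0% ± 4.92. In pistil CqNL-6_029138 held 41.7% ± 14.4, but in pistil replicate 3 its FPKM (20.8) was below that of CqNL-6_025273 (21.8) and CqNL-6_023039 (21.5). In root CqNL-6_029138 (36.6% ± 5.81), CqNL-6_002482 (23.7% ± 3.67) and CqNL-6_017086 (23.0% ± 3.50) held most of it. CqNL-6_029138 held 71.6% ± 2.43 in NaCl-treated leaf and 51.2% ± 4.17 in leaf, while CqNL-6_023039 held 9.43% ± 0.25 in NaCl-treated leaf and 27.8% ± 3.95 in leaf. The NaCl and leaf ranges did not overlap for either share, and 3 against 3 libraries cannot give an exact permutation p under 0.1. Among the titled oxidases alone, CqNL-6_025273 held 92.6% ± 2.16 in NaCl-treated leaf and 96.6% ± 0.11 in leaf. The 17 homologs summed to 1.70 ± 0.37 FPKM in stamen, 4.61 ± 0.57 in pistil, 61.3 ± 3.19 in root, 23.7 ± 8.13 in NaCl-treated leaf and 5.49 ± 0.75 in leaf, and CqNL-6_040759 held 68.5% ± 1.67 of the root sum.

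**Figure D4:**
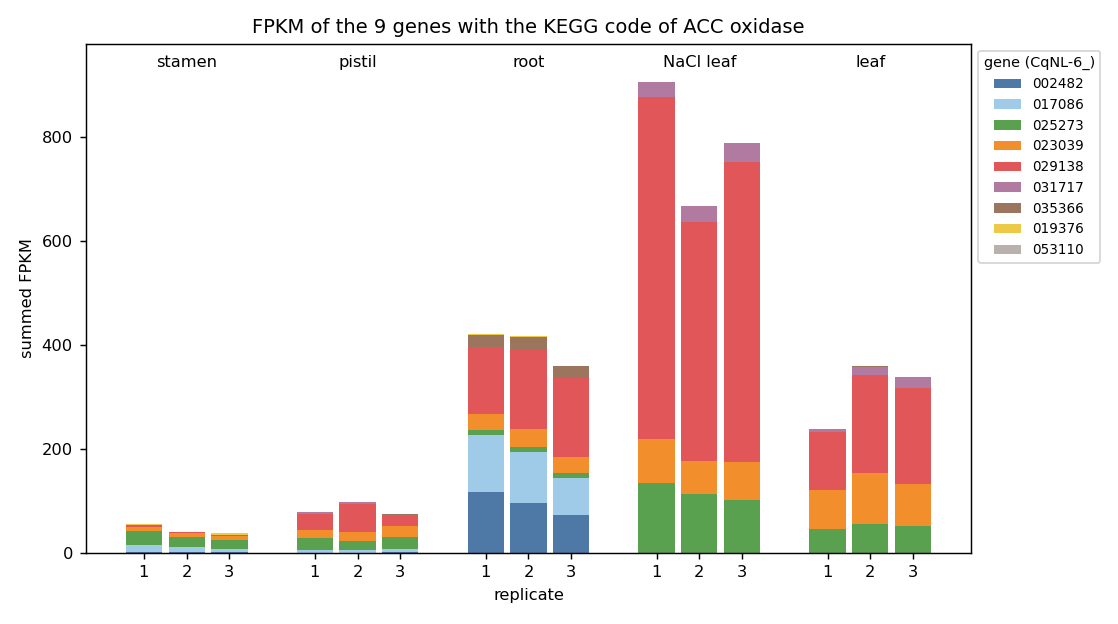
Summed FPKM of the 9 genes with the KEGG code of ACC oxidase in each library (bars, by group and replicate), divided by gene. NaCl-treated leaf libraries reach 667 to 906 FPKM and leaf libraries 238 to 359, and the largest part of both is CqNL-6_029138. FPKM rests on the total count of each library, so bar heights of different tissues depend on the scaling.

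Genes before and after ethylene synthesis were read from lists made by title and by KEGG code. S-adenosylmethionine synthase supplies the substrate of ACC synthase. In the titled list of methyl donor supply and methionine salvage (7 genes, 4 tested for NaCl), 3 were higher and 1 lower after NaCl treatment (24.0% and 22.8% of all genes), with a median log2 fold change of 2.00, against 0.04 over all genes. The lower one was the methionine synthase gene CqNL-6_051252 (-1.08 ± 0.25, edgeR adjusted p = 0.00685). The S-adenosylmethionine synthase genes CqNL-6_038501 and CqNL-6_015507 rose by 3.18 ± 0.26 (edgeR adjusted p = 5.47e-05) and 2.23 ± 0.21 (edgeR adjusted p = 9.03e-05). Of the 2 further genes with that enzyme's code (K00789), CqNL-6_006344 fell by 0.53 on the log2 scale (edgeR adjusted p = 0.00397) and CqNL-6_014905 did not pass (0.19 ± 0.13, edgeR adjusted p = 0.249). By KEGG code the list held 17 genes, of which 13 were tested, 7 higher and 3 lower, with a median log2 fold change of 0.87. These enzymes also serve methylation reactions in general. The gene of smallest p in that list, CqNL-6_012001, carried the code of methionine synthase (K00549) and rose by 2.27 ± 0.17 (edgeR adjusted p = 4.67e-05), as did CqNL-6_055380 (2.54 ± 0.21, edgeR adjusted p = 5.74e-05), while CqNL-6_003109 of the same code fell by 0.66 (edgeR adjusted p = 0.00239). The methylthioribose kinase gene CqNL-6_020080, whose product acts in the recycling of the methylthio group left by ACC synthase, was highest in root among the untreated tissues (41.5 CPM) and rose by 1.78 ± 0.19 after NaCl treatment (edgeR adjusted p = 0.000134). Among the untreated tissues CqNL-6_015507 (6132 CPM), CqNL-6_012001 (2434 CPM) and CqNL-6_055380 (2465 CPM) were highest in stamen with TMM. In NaCl-treated leaf they averaged 1655, 2685 and 3039 CPM in that order. By KEGG code 4 genes of the list were highest in stamen, 1 in pistil and 1 in root. The shares of all tested genes were 20.0%, 6.03% and 10.4%. All these calls rest on TMM, whose factors were 0.474 to 0.497 in stamen and 1.35 to 1.40 in root. Other scalings are not given for these genes.

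Of ethylene receptors and signalling genes found by title (5 genes, all tested), 3 were higher in NaCl-treated leaf and 0 lower, in edgeR at adjusted and unadjusted p and in DESeq2 (24.0% and 22.8% of all genes in edgeR). The gene CqNL-6_044779, titled EIN3-binding F-box protein 2-like, which in Arabidopsis marks the transcription factor EIN3 for breakdown, rose by 2.18 ± 0.30 (edgeR adjusted p = 0.000448) and was highest in root among the tissues (20.0 CPM). The ethylene receptor gene CqNL-6_020752 rose by 0.94 ± 0.23 (edgeR adjusted p = 0.00873). Another receptor gene, CqNL-6_037425, was highest in stamen among the untreated tissues with TMM (21.0 CPM). By KEGG code 24 of 26 signalling genes were tested, with 10 higher and 0 lower (12 higher and 0 lower at an unadjusted p under 0.05, and 10 and 0 in DESeq2), and a median log2 fold change of 0.34. The 10 of 24 that passed compare with 46.8% of all genes. Among the untreated tissues 3 of the coded genes were highest in stamen and 2 in root, beside 20.0% and 10.4% of all tested genes. The tissue calls of these lists also rest on TMM, and other scalings are not given for them. The code-only receptor genes CqNL-6_046569 and CqNL-6_037424, of 1 NR match, rose by 1.99 ± 0.20 (edgeR adjusted p = 0.000105) and 2.13 ± 0.21 (edgeR adjusted p = 0.000109). No gene matched the list on the turnover of ACC and ACC synthase, which was searched by title alone. Only 24.3% of all genes had an informative title, so such genes may be present without one.

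For CqNL-6_055529 and CqNL-6_026133 the titled genes with the most similar pattern were sought by Pearson's r of log2(CPM + 0.5) over the 15 libraries, among 6137 genes of at least 10 CPM in a group. The 15 libraries are 5 groups of replicates, so r mainly describes the order of 5 levels. Closest to CqNL-6_055529 were CqNL-6_043238, titled trifunctional UDP-glucose dehydratase (r = 0.989), CqNL-6_030430, titled respiratory burst oxidase homolog E (r = 0.962), and CqNL-6_015527, titled hydrophobic protein RCI2B (r = 0.958). Closest to CqNL-6_026133 were CqNL-6_025445, titled cysteine-rich repeat secretory protein 38-like (r = 0.959), CqNL-6_021569, titled bHLH14-like (r = 0.954), and CqNL-6_036785, titled ATHB-12-like (r = 0.936).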

How the data were processed

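Reads were filtered by the authors, mapped with HISAT2 against the NL-6 assembly (2.1.0 by the submitters' notes) and assigned to genes with HTSeq. Deposited counts are whole and not normalized. The deposited FPKM, which the authors derived from the counts, equalled the count over gene length in kb and total count to within 4.67e-06. HTSeq's strand setting and its treatment of multiple matches were not stated in the sources used. No column lacked a sample, and no pair of libraries was identical.

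Groups were taken from the sample labels. Counts passed filterByExpr, were scaled by TMM and were tested with edgeR 4.0.16 (glmQLFit and glmQLFTest, Benjamini-Hochberg), with the 6 leaf libraries for NaCl and the 12 untreated libraries for the tissues. The SE of a log2 fold change was its size over the square root of F. Replicates pooled separate plants or organs, and p-values measure the spread between these pools. Alternatives were DESeq2 1.42.0, other scalings, no filter, all 15 libraries, the replicate number as a block, each library left out, other calls, and KEGG-coded genes as members, the last added after the data were seen. Values in every sample were given for members of at least 10 CPM in a group and for others that a result turns on. Pathway genes named were the 2 of smallest p for NaCl of each list, some of those highest in a tissue, and further genes of the same codes. The members, lists and tests were chosen with earlier results of these data known. Of all genes, 24.3% had an informative title, 0 members were found in the reference gene table (another quinoa assembly), and no sequence is shown. The fits were tested on simulated data. Tools were R 4.3.3, limma 3.58.1, Python 3.11.15, pandas 2.3.3, numpy 2.4.6, scipy 1.17.1 and matplotlib 3.10.9.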

Additional observations from a re-analysis of the deposited data

How the results depend on the processing

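Of 395 repeats of 25 single-gene contrasts under other settings, 379 kept their direction and their side of the threshold. These 379 include 12 repeats of CqNL-6_027190 for NaCl, 17 of CqNL-6_055025 for root over leaf and 14 of CqNL-6_040760 for stamen over root. Each of these genes entered its test through the group where it is high, so such repeats say little about stability. The NaCl changes of CqNL-6_026133, CqNL-6_055529, CqNL-6_040759 and CqNL-6_025273 passed in each setting run. That of CqNL-6_027190, which entered the test through its leaf reads, was -3.59 to -2.25 with a library left out. Reversed with the total library size were CqNL-6_025273 stamen over pistil (-0.0062), CqNL-6_040759 stamen over pistil (-1.29) and CqNL-6_027190 root over leaf (0.49). Reversed on leaving out a library, in contrasts that had not passed, were CqNL-6_040759 stamen over pistil (-0.31 without stamen replicate 1, range -0.31 to 0.91) and CqNL-6_026133 root over leaf (-0.092 without root replicate 3, range -0.092 to 0.46). The cause was not tested. With the total library size CqNL-6_026133 root over leaf passed at 1.00 (adjusted p = 0.0263). With the KEGG-coded genes as members, 9 genes passed for NaCl, 13 for stamen over pistil, 14 for stamen over leaf, 12 for pistil over leaf and 19 for root over leaf, since more genes were tested. Members highest in pistil numbered 1 without the read filter and 0 to 1 with a library left out (CqNL-6_025020 each time), and members highest in leaf numbered 1 with the total library size and 1 with no minimum fold, where those highest in root numbered 11 in both. Leaving out a library gave 5 to 7 members for NaCl, 9 to 10 highest in root, 7 to 10 for stamen over pistil, 13 to 14 for stamen over root, 9 to 11 for stamen over leaf, 16 to 17 for pistil over root, 6 to 8 for pistil over leaf and 12 to 14 for root over leaf. The filter on low counts was run again each time, so more members could be tested than in the main fit. By CPM in place of FPKM the share of CqNL-6_055529 in the titled oxidases was 18.6% in NaCl-treated leaf and 7.23% in leaf, against 7.13% and 2.54% by FPKM. Precision is limited by 3 libraries per group and by low counts, since only 6 of the 29 members reached 10 CPM in a group.

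Replicate numbers are shared across groups, but the deviations of same-numbered libraries did not correlate (-0.109 to 0.017 for NaCl-treated and untreated leaf, and no group pair had each of its 3 correlations over 0.1), so the number was not taken as a pairing. With the replicate number as a block, 6 members passed for NaCl, CqNL-6_043269 among them (1.44, adjusted p = 0.0147), 12 passed for stamen over root and 9 were highest in root. Under the block CqNL-6_055529 stamen over root (-0.24, adjusted p = 0.0547) did not pass.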
